A study of Mus musculus with 9 samples.

Results

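The 9 genes described here encode the main digestive enzymes of the intestinal brush border: the disaccharidases Lct, Sis, Mgam and Treh, the peptidases Anpep, Dpp4, Enpep and Mme, and the phosphatase Alpi. They are a list of names, which uses no measured value as a criterion but was drawn up with earlier results of these data known, out of 48708 genes in the table. All 9 were found in the table, all 9 passed the filter on low counts that left 16539 genes to test, and the least counted of them had 4221 counts in the library where it was lowest. RNA came from the small intestine of C57BL/6 mice of postnatal week 8 with acute graft-versus-host disease, an attack of transplanted immune cells on the tissues of the host. Libraries fell into 3 groups of 3: Ripk3-KO, labelled RIPK3-/-, VilCre-Ripk3fl/fl, in which Villin-cre drives recombination of the floxed gene in the intestinal epithelium, and WT, labelled wild type. The product of Ripk3 is a kinase that acts in necroptotic cell death. The labels do not say whether the genotype also holds for the transplanted cells, nor that the libraries of a group came from separate animals, so every p-value here reflects the spread among the libraries sequenced, and that spread may be technical alone.

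The brush border is the carpet of microvilli on the luminal face of the absorptive enterocyte. Its membrane carries hydrolases that finish digestion at the surface: disaccharidases split the sugars left by pancreatic amylase, peptidases trim short peptides, and alkaline phosphatase removes phosphate from lipids, nucleotides and bacterial lipopolysaccharide. Enterocytes switch these genes on as they leave the crypt and climb the villus, and transcription factors of the HNF4, CDX and GATA families are known to drive several of them in rodents. Lactase is high in suckling rodents and falls at weaning. The peptidases are also made outside the enterocyte, Dpp4 by T cells and Mme by stromal cells among others, and in bulk tissue fewer cells of a type and less RNA per cell cannot be told apart.

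The upstream sequence of 4 members is shown because they are the extremes of the results: Lct and Dpp4 had the largest changes, and Sis and Mgam among the smallest. They were picked after their values were seen. Each runs 250 bases before to 50 bases after the RefSeq start on GRCm38.p6, 5′ to 3′ on the strand of the gene. Capitals mark matches, on either strand, to a motif of 6 letters for the CDX, GATA or HNF4 factors, spelled out after the sequences.
Lct, chr1:128328269-128328568, minus strand: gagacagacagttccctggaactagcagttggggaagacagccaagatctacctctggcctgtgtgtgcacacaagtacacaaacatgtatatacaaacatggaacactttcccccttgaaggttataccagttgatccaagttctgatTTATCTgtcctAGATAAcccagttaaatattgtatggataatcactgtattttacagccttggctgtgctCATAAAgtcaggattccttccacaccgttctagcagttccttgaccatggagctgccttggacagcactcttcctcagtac
Dpp4, chr2:62412182-62412481, minus strand: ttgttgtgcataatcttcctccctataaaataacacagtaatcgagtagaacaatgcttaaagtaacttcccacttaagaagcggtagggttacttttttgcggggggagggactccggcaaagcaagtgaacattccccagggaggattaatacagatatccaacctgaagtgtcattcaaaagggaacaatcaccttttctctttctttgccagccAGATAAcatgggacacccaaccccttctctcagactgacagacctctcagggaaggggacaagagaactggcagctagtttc
Sis, chr3:72967814-72968113, minus strand: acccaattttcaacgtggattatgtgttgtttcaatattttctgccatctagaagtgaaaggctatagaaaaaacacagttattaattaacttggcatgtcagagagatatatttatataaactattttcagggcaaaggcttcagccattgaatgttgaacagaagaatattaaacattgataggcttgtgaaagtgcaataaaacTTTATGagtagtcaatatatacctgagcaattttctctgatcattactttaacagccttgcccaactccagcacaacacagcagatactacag
Mgam, chr6:40628581-40628880, plus strand: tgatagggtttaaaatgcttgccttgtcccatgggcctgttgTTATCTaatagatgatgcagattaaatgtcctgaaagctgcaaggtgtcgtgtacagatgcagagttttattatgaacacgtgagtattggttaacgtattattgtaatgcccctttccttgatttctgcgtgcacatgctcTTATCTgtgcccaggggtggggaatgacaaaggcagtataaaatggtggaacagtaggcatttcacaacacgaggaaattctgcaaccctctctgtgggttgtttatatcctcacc
In Lct the window held 1 CDX match at -31 to -26 and 2 GATA matches, at -101 to -96 and -90 to -85, counted from the start site. The Sis window held a CDX match at -43 to -38, so a CDX match lay shortly before the start in both Lct, which rose in both genotypes, and Sis, which did so in 1. The Mgam window held 2 GATA matches, at -208 to -203 and -66 to -61, and the Dpp4 window 1, at -32 to -27. Of the members not shown, Treh, Mme (in 1 of 3 windows) and Alpi held the HNF4 letters, and Anpep and Enpep held none of the 3 motifs in this window. The 3 motifs overlapped nowhere in the windows printed. Among 32851 mouse promoter windows of the same length, the letters searched for CDX, which were TTTATG, occurred in 11.9%. For GATA factors the motif searched was AGATAA, present in 11.2% of windows, and for HNF4 it was CAAAGT, present in 14.4% of windows. A match is a description of the letters and not a bound site.

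Total counts ranged between 25375499 and 41038990 per library, and the 9 members together took 1.04 to 1.1% of counts in Ripk3-KO, 0.990 to 1.05% of those in VilCre-Ripk3fl/fl and 0.744 to 0.766% of those in WT. Ripk3 itself measured 3.88, 3.57 and 3.40 CPM (counts scaled to library size with TMM factors) in the Ripk3-KO libraries, 5.54, 7.36 and 6.46 CPM in VilCre-Ripk3fl/fl, and 113, 114 and 112 CPM in WT. The groups also differed in the tissue around the epithelium. Summed CPM of 20 exocrine pancreas markers was 141 to 156 in the Ripk3-KO libraries, 18416 to 19743 in the VilCre-Ripk3fl/fl libraries and 2863 to 2896 in the WT libraries, and that of 14 adipocyte markers was 6642 to 6860, 395 to 402 and 252 to 266 in the same order of groups. Xist averaged 276 CPM in Ripk3-KO, 7.5 CPM in VilCre-Ripk3fl/fl and 8.46 CPM in WT, and the Y-linked Ddx3y 0.477, 38.1 and 39.8 CPM, so sex and the Ripk3-KO genotype cannot be told apart. The part of these differences in the results below was not tested.

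Against WT, 7 members rose and 2 fell in Ripk3-KO, and 6 rose and none fell in VilCre-Ripk3fl/fl. The test was edgeR's quasi-likelihood test with Benjamini-Hochberg adjusted p under 0.05 over all genes. With TMM scaling all 9 log2 differences in VilCre-Ripk3fl/fl were above 0. In the deposited TPM, Sis, Mgam and Alpi instead averaged 413, 399 and 948 in VilCre-Ripk3fl/fl, below 475, 481 and 1069 in WT, with no overlap of libraries. Lct, Treh, Anpep, Dpp4, Enpep and Mme rose in both genotypes. Mgam, Sis and Alpi, which with Anpep had the highest levels per length in WT, moved by at most 1.19-fold in either genotype. In Ripk3-KO against WT, 55.4% of all genes were called, 27.3% higher and 28.1% lower. In VilCre-Ripk3fl/fl against WT, 55.6% of all genes were called, 27.2% higher and 28.4% lower. The median log2 fold change of the members was 0.88 in the Ripk3-KO and 0.89 in the VilCre-Ripk3fl/fl comparison, beside 0.01 and 0.02 over all genes. The 3 Ripk3-KO libraries did not overlap with the 3 WT libraries for any of the 9 members, as for 63.5% of all genes, and the VilCre-Ripk3fl/fl libraries did not overlap with WT for 7 members, as for 61.4% of all genes. Both comparisons use the same 3 WT libraries.

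**Figure D1:**
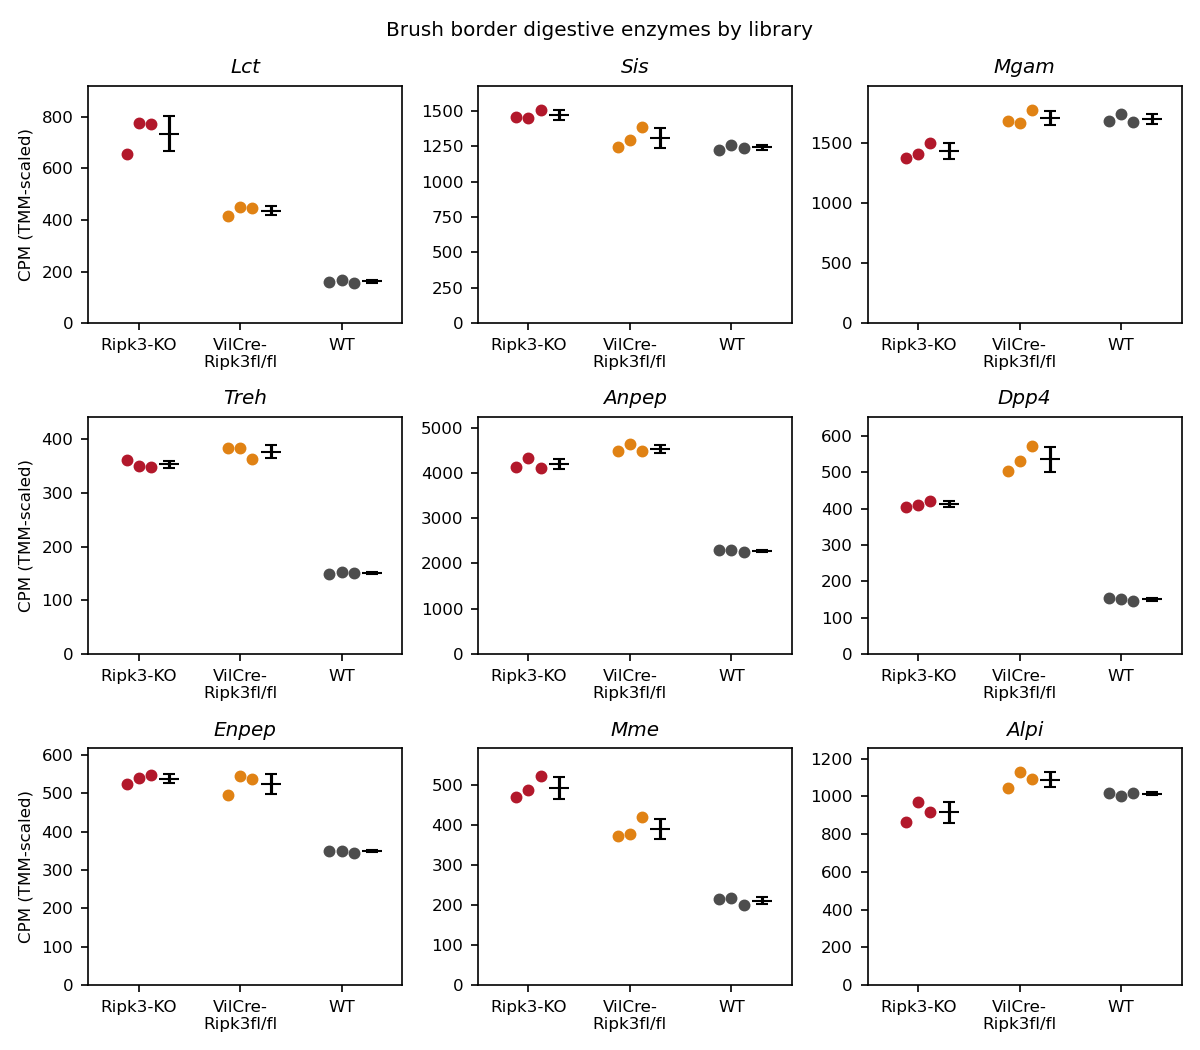
TMM-scaled CPM of the 9 enzyme genes in each library (points, y axes start at 0), with the group mean and SD beside them (n = 3), for Ripk3-KO, VilCre-Ripk3fl/fl and WT. Lct stands at 656 to 776 CPM in Ripk3-KO, 415 to 449 CPM in VilCre-Ripk3fl/fl and 157 to 169 CPM in WT, while Sis, Mgam and Alpi differ little between groups.

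These results rest on the 3 WT libraries at hand, and the authors' deposited comparisons with WT differ from them. In the authors' deposited table, 1 of the 9 members passed an FDR-adjusted p of 0.05 in Ripk3-KO, Lct at a log2 fold change of 1.33 (adjusted p = 0.000517), and 0 of 9 passed in VilCre-Ripk3fl/fl. The sign of the log2 fold change in the authors' deposited table was opposite to that from the counts for 4 members in Ripk3-KO (Sis, Anpep, Enpep and Alpi) and for 4 in VilCre-Ripk3fl/fl (Sis, Mgam, Anpep and Enpep). The table also gives the higher of the 2 group means, in RPKM. Of 11862 genes over 1 RPKM in the Ripk3-KO comparison, that mean equalled the mean of the 3 Ripk3-KO libraries (within 1e-06) for 5240 genes, and that of the 3 WT libraries for 0. In the VilCre-Ripk3fl/fl comparison it equalled the mutant mean for 3166 of 11560 genes and the mean of the 3 WT libraries for 0. For Anpep, the authors' deposited table gave 967 RPKM as the higher mean in both comparisons, against means of 879 RPKM in the 3 Ripk3-KO libraries, 831 RPKM in the 3 VilCre-Ripk3fl/fl libraries and 498 RPKM in the 3 WT libraries. For Enpep the authors' deposited value was 114 RPKM, and the 3 libraries of each group averaged 99.2, 84.7 and 67.1 RPKM in the same order. The authors' WT mean was therefore not that of the 3 WT libraries, and what else entered it is not given in the sources used here. For Anpep and Enpep that WT mean lay above the means of both mutants, so their rises given below depend on the WT libraries used. All counts of calls that follow come from the 9 libraries, and the value in the authors' deposited table is given beside each member.

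**Figure D2:**
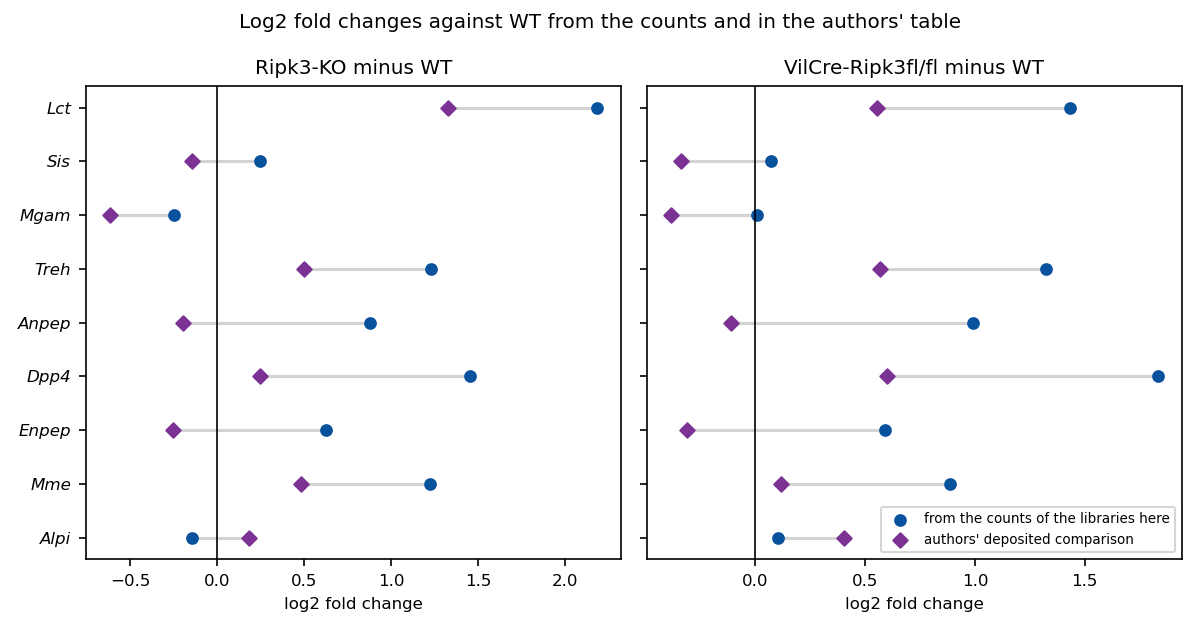
Log2 fold change against WT of each enzyme gene, from the counts of the 9 libraries (circles) and in the authors' deposited table (diamonds), for Ripk3-KO (left) and VilCre-Ripk3fl/fl (right). The authors' value is the lower of the pair for every gene but Alpi, and Anpep and Enpep lie on opposite sides of 0.

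Lct, lactase, which splits the milk sugar lactose (ENSMUSG00000026354, chr1:128284756-128328318, minus strand, mm10), rose most in Ripk3-KO. It measured 656, 776 and 775 CPM in Ripk3-KO, 415, 449 and 447 CPM in VilCre-Ripk3fl/fl, and 160.4, 169 and 157 CPM in WT. The 3 groups were fully separated, with Ripk3-KO highest and WT lowest. The rise was 4.54-fold in Ripk3-KO (log2 2.18, SE 0.059, adjusted p = 1.07e-19) and 2.70-fold in VilCre-Ripk3fl/fl (log2 1.43, SE 0.058, adjusted p = 5.17e-16). The authors' deposited table gave log2 1.33 and 0.55, with adjusted p = 0.000517 and 0.262.

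Treh, trehalase, which splits the fungal and insect sugar trehalose (ENSMUSG00000032098, chr9:44673233-44686305, plus strand), measured 361, 351 and 349 CPM in Ripk3-KO, 384, 385 and 363 CPM in VilCre-Ripk3fl/fl, and 149, 153 and 150.1 CPM in WT. Both genotypes lay far above WT, with VilCre-Ripk3fl/fl slightly the higher. The rise was 2.35-fold in Ripk3-KO (log2 1.23, SE 0.045, adjusted p = 8.1e-18) and 2.50-fold in VilCre-Ripk3fl/fl (log2 1.32, SE 0.045, adjusted p = 2.79e-18). In the authors' deposited table the log2 fold changes were 0.50 and 0.57 (adjusted p = 0.301 and 0.189). The end of Treh overlaps Phldb1 on the other strand by a few bases.

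Sis and Mgam, the large glucosidases that finish starch digestion, moved little. Sis, sucrase-isomaltase (ENSMUSG00000027790, chr3:72888557-72967863, minus strand), measured 1458, 1447 and 1510.5 CPM in Ripk3-KO, 1245, 1293 and 1384 CPM in VilCre-Ripk3fl/fl, and 1227, 1262 and 1239 CPM in WT. Only Ripk3-KO stood clear of WT for Sis, and VilCre-Ripk3fl/fl overlapped with it. Sis rose 1.18-fold in Ripk3-KO (log2 0.24, SE 0.045, adjusted p = 5.65e-05). In VilCre-Ripk3fl/fl its log2 difference was 0.07 (SE 0.045, adjusted p = 0.174), and without VilCre-Ripk3fl/fl replicate 1 it was 0.11 (adjusted p = 0.0494). Sis was negative in the authors' deposited table, with log2 -0.14 in Ripk3-KO and log2 -0.34 in VilCre-Ripk3fl/fl (adjusted p = 0.791 and 0.382).

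Mgam, maltase-glucoamylase (ENSMUSG00000068587, chr6:40628831-40769123, plus strand), measured 1379, 1411 and 1505 CPM in Ripk3-KO, 1684, 1669 and 1776 CPM in VilCre-Ripk3fl/fl, and 1682, 1745 and 1672 CPM in WT. All 3 Ripk3-KO libraries lay below the other 6, which overlapped. Mgam fell 1.19-fold in Ripk3-KO (log2 -0.25, SE 0.045, adjusted p = 4.97e-05), and its log2 difference in VilCre-Ripk3fl/fl was 0.01 (SE 0.045, adjusted p = 0.888). The fall in Ripk3-KO turned into a log2 rise of 0.12 (adjusted p = 0.0432) when libraries were scaled to 12 pan-epithelial genes. The authors' deposited table gave log2 -0.62 and -0.38 (adjusted p = 0.0572 and 0.297).

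Anpep, aminopeptidase N, which removes neutral residues from the amino end of peptides (ENSMUSG00000039062, chr7:79821803-79861059, minus strand), was the most abundant member in every group. It measured 4137, 4319.9 and 4118 CPM in Ripk3-KO, 4482, 4640.3 and 4493 CPM in VilCre-Ripk3fl/fl, and 2291, 2301 and 2248 CPM in WT. Every mutant library lay well above every WT library. Anpep rose 1.84-fold in Ripk3-KO (log2 0.88, SE 0.042, adjusted p = 2.5e-15) and 1.99-fold in VilCre-Ripk3fl/fl (log2 0.99, SE 0.042, adjusted p = 2.77e-16). In the authors' deposited table it was slightly negative in both, at log2 -0.20 and -0.11 (adjusted p = 0.805 and 0.903).

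Dpp4, dipeptidyl peptidase 4, which removes dipeptides after proline or alanine (ENSMUSG00000035000, chr2:62330073-62412231, minus strand), rose most in VilCre-Ripk3fl/fl. It measured 405, 409 and 422 CPM in Ripk3-KO, 504, 530.2 and 571 CPM in VilCre-Ripk3fl/fl, and 154, 150.3 and 146 CPM in WT. The 3 groups were separated, here with VilCre-Ripk3fl/fl highest. The rise was 2.74-fold in Ripk3-KO (log2 1.45, SE 0.050, adjusted p = 1.56e-18) and 3.56-fold in VilCre-Ripk3fl/fl (log2 1.83, SE 0.050, adjusted p = 1.92e-20). The authors' deposited table gave log2 0.25 and 0.60 (adjusted p = 0.762 and 0.296). The antisense gene Gm13561 overlaps Dpp4 and had 215 counts in all 9 libraries together. Dpp4 is also a T cell surface protein, and T cell genes moved the other way. Of 15 T and cytotoxic lymphocyte markers, 0 rose and 11 fell in Ripk3-KO and 0 rose and 12 fell in VilCre-Ripk3fl/fl, and their summed level was 113 to 119 CPM in Ripk3-KO, 108 to 113 CPM in VilCre-Ripk3fl/fl and 212 to 219 CPM in WT.

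Enpep, aminopeptidase A, which removes acidic residues (ENSMUSG00000028024, chr3:129269175-129332720, minus strand), measured 525, 540.1 and 549 CPM in Ripk3-KO, 496, 544 and 537 CPM in VilCre-Ripk3fl/fl, and 351, 351 and 346 CPM in WT. The mutant libraries overlapped each other and stood above WT. Enpep rose 1.54-fold in Ripk3-KO (log2 0.62, SE 0.045, adjusted p = 1.16e-11) and 1.51-fold in VilCre-Ripk3fl/fl (log2 0.59, SE 0.045, adjusted p = 4.3e-11). The authors' deposited table gave log2 -0.25 and -0.31 (adjusted p = 0.710 and 0.590).

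Mme, neprilysin, an endopeptidase of short peptides (ENSMUSG00000027820, chr3:63241537-63386030, plus strand), measured 468, 486 and 521 CPM in Ripk3-KO, 372, 376 and 418 CPM in VilCre-Ripk3fl/fl, and 214, 217 and 201 CPM in WT. Like Lct it was highest in Ripk3-KO and lowest in WT, with no overlap. The rise was 2.34-fold in Ripk3-KO (log2 1.23, SE 0.053, adjusted p = 2.7e-16) and 1.85-fold in VilCre-Ripk3fl/fl (log2 0.89, SE 0.053, adjusted p = 2.82e-13). The authors' deposited table gave log2 0.48 and 0.12 (adjusted p = 0.337 and 0.853). Markers of stromal cells, some of which also make Mme, followed the same order of groups. All 10 smooth muscle markers rose in both genotypes, with a summed level of 3572 to 4028 CPM in Ripk3-KO, 2893 to 3032 CPM in VilCre-Ripk3fl/fl and 1542 to 1605 CPM in WT. Of 10 fibroblast and matrix markers, 8 rose in Ripk3-KO, 3 rose in VilCre-Ripk3fl/fl and none fell, with sums of 790 to 855 CPM, 543 to 556 CPM and 489 to 511 CPM in the same order of groups. None of these muscle, fibroblast or T cell markers was at 0 in a whole group, and their part in the results for Dpp4 and Mme was not tested.

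Alpi, intestinal alkaline phosphatase (ENSMUSG00000079440, chr1:87098002-87101606, minus strand), measured 862, 973 and 916 CPM in Ripk3-KO, 1048, 1129 and 1091 CPM in VilCre-Ripk3fl/fl, and 1019, 1004 and 1018 CPM in WT. Ripk3-KO lay below and VilCre-Ripk3fl/fl above the narrow range of WT. Alpi fell 1.11-fold in Ripk3-KO (log2 -0.15, SE 0.047, adjusted p = 0.0110). Its log2 difference in VilCre-Ripk3fl/fl was 0.10 (SE 0.047, adjusted p = 0.0660). Both values sat near the threshold. Without Ripk3-KO replicate 1 the Ripk3-KO difference was -0.10 (adjusted p = 0.0507), and with that library or VilCre-Ripk3fl/fl replicate 1 left out the VilCre-Ripk3fl/fl difference passed at 0.10 and 0.13 (adjusted p = 0.0273 and 0.0274). It passed in all but 9 of the 19 alternatives tried, DESeq2 and limma-voom among them, with adjusted p of 0.0121 to 0.235 over the 19. Scaling to pan-epithelial genes turned the Ripk3-KO fall into a log2 rise of 0.23 (adjusted p = 0.000834). The authors' deposited table gave log2 0.18 and 0.41 (adjusted p = 0.748 and 0.325).

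Between Ripk3-KO and VilCre-Ripk3fl/fl, 3 members were higher in Ripk3-KO, 4 were lower and 2 did not pass, where 31.7% of all genes were called, 16.6% higher and 15.1% lower. The libraries of the 2 genotypes did not overlap for 8 of 9 members, as for 40.8% of all genes, and the members' median log2 difference was -0.09. Lct was 1.68-fold higher in Ripk3-KO (log2 0.75, SE 0.056, adjusted p = 1.42e-10), Mme 1.26-fold higher (log2 0.34, SE 0.052, adjusted p = 1.32e-05) and Sis 1.13-fold higher (log2 0.17, SE 0.045, adjusted p = 0.00465). Dpp4 was 1.30-fold lower (log2 -0.38, SE 0.048, adjusted p = 7.2e-07), and Mgam and Alpi were each 1.19-fold lower (adjusted p = 7.91e-05 and 0.000183). Anpep was lower by log2 -0.11 (SE 0.042) at an adjusted p of 0.0387, a call that was lost without Ripk3-KO replicate 1 or 3, VilCre-Ripk3fl/fl replicate 2, or any of the 3 WT libraries, with adjusted p between 0.0507 and 0.139. It was also lost with upper-quartile scaling, with no filter beyond 1 read and in a fit of the 2 mutants alone (adjusted p = 0.0861, 0.110 and 0.122). Treh had a log2 difference of -0.09 (SE 0.044, adjusted p = 0.115). It passed at -0.12 (adjusted p = 0.0361) without VilCre-Ripk3fl/fl replicate 3 and at -0.10 (adjusted p = 0.0396) with DESeq2. Enpep differed by log2 0.03 (SE 0.045, adjusted p = 0.622).

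The direction of the smaller differences depended on what the libraries were scaled to. Of 12 pan-epithelial markers, 0 rose and 10 fell in Ripk3-KO against WT, and 5 rose and 3 fell in VilCre-Ripk3fl/fl against WT. Their summed level was 12721 to 13135 CPM in Ripk3-KO, 14079 to 14853 CPM in VilCre-Ripk3fl/fl and 16101 to 16261 CPM in WT. These sums lack the TMM factors of 0.932 to 1.043, so their order of groups need not hold on the scale of the fits. Members of this list did not move alike. The epithelial adhesion gene Epcam averaged 1561 ± 68.6 CPM in Ripk3-KO, 1715 ± 63.2 CPM in VilCre-Ripk3fl/fl and 1483 ± 19.5 CPM in WT, whereas the keratin gene Krt18 measured 162 to 180.3 CPM, 205 to 234 CPM and 374 to 389 CPM in the same order (SD, n = 3 each, for Epcam). Scaled so that these 12 genes had equal geometric means, the median of all genes shifted to a log2 difference of 0.38 in Ripk3-KO against WT, 0.04 in VilCre-Ripk3fl/fl against WT and 0.36 between the mutants. Under that scaling all 9 members rose in Ripk3-KO against WT, as did 8930 of the 16539 genes tested. Higher genes made up 85.9% of all called genes, where TMM scaling gave 49.2%. Relative to the shifted median, Mgam and Alpi stayed below it. Between the mutants, Mgam, Treh, Anpep and Alpi changed sign under that scaling, at log2 0.09, 0.25, 0.23 and 0.10, and Dpp4 stood at -0.03 (adjusted p = 0.614). The rises of Lct, Treh, Anpep, Dpp4, Enpep and Mme against WT passed the test in both genotypes under every scaling, filter, tool and omission of a library that was tried. All of these drew on the same 3 WT libraries, so they do not show how the rises would fare with other WT libraries. In the authors' deposited table, with another WT mean, Anpep and Enpep were negative in both genotypes and only Lct in Ripk3-KO passed.

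**Figure D3:**
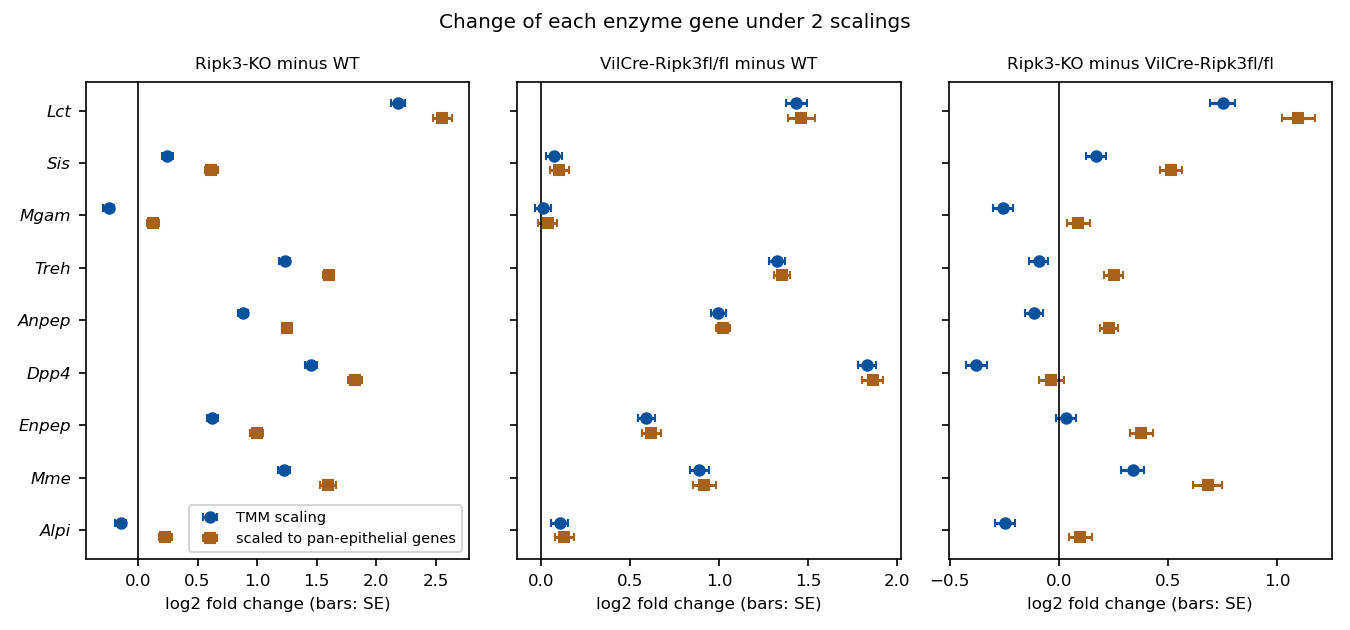
Log2 fold change of each enzyme gene (x axes, points with SE bars) in Ripk3-KO minus WT, VilCre-Ripk3fl/fl minus WT and Ripk3-KO minus VilCre-Ripk3fl/fl, with TMM scaling (circles) and with libraries scaled to pan-epithelial genes (squares). The epithelial scaling moves all 9 genes up in both panels that hold Ripk3-KO and hardly moves the middle panel.

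Levels per length, as the deposited TPM give them, set the members in order within each group. In Ripk3-KO the order of mean TPM was Anpep 2403, Alpi 931, Sis 542, Treh 409, Mgam 390.0, Lct 273, Enpep 271, Dpp4 155 and Mme 101. In VilCre-Ripk3fl/fl it was Anpep 2231, Alpi 948, Sis 413, Mgam 399, Treh 374, Enpep 227, Dpp4 172, Lct 139 and Mme 68.5. In WT it was Anpep 1358, Alpi 1069, Mgam 481, Sis 475, Enpep 183, Treh 181, Lct 62.3, Dpp4 58.6 and Mme 44.9. Anpep and Alpi led and Mme was last in all 3 groups. Neighbours in the order whose libraries overlapped in TPM were Treh with Mgam and Lct with Enpep in Ripk3-KO, Sis with Mgam and Mgam with Treh in VilCre-Ripk3fl/fl, and Mgam with Sis, Enpep with Treh and Lct with Dpp4 in WT. Lactase was thus level with aminopeptidase A in Ripk3-KO, at a mean of 273 ± 32.9 TPM against 271 ± 14 TPM, while in WT it was at 62.3 ± 2.94 TPM against 183 ± 2.95 TPM (SD, n = 3).

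The members fell into patterns when their log2(CPM + 1) was correlated over the 9 libraries, a description over libraries that share 3 genotypes. Anpep correlated with Treh at Pearson r = 0.997 and with Dpp4 at 0.993, and Lct with Mme at 0.993. Mgam correlated with Sis at -0.74, though both are starch-digesting glucosidases, and with Alpi at 0.80. Outside the members, the genes nearest in pattern to Anpep were Naaladl1, another brush border peptidase gene, Igsf9 and Clca1 (r = 0.999, 0.999 and 0.998). Nearest to Dpp4 were Slc5a1, the sodium-glucose cotransporter (r = 0.999), Clca1 and Slc34a2, and nearest to Treh were Apol7a, the carbonic anhydrase gene Car4 and Gsdmc2. Nearest to Mgam were Atp10b, Plekha2 and Cdh17, which encodes an intestinal cadherin (r = 0.980, 0.971 and 0.963). The nearest to Sis was Pls1, an actin-bundling protein of microvilli (r = 0.992), followed by Hspa4l and Ell2. Lct and Mme were nearest to genes that include stromal and muscle genes: Dmpk, Susd2 and Sparcl1 for Lct (each r = 0.998), and Lmod1, a smooth muscle actin nucleator (r = 0.997), Marveld1 and Cat for Mme. Enpep was nearest to Dpyd (r = 0.998), Tle3 and Shpk, and Alpi to Lzts3 (r = 0.972), Shroom3 and Nol4l.

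Most other brush border hydrolases, 18 in the list and 17 tested, also rose in both genotypes. Against WT in Ripk3-KO, 15 rose, 1 fell and 1 did not pass, with a median log2 fold change of 1.05. In VilCre-Ripk3fl/fl 14 rose, none fell and 3 did not pass, with a median of 1.12, and between the mutants 3 were higher in Ripk3-KO and 5 lower. Naaladl1 averaged 149 ± 5.58 CPM in Ripk3-KO, 208 ± 16.1 CPM in VilCre-Ripk3fl/fl and 14.9 ± 1.46 CPM in WT (SD, n = 3), a rise of 9.99-fold and 13.9-fold (adjusted p = 1.75e-22 and 2.2e-23). Nt5e, the nucleotidase that makes adenosine, averaged 196 ± 4.81, 70.3 ± 3.94 and 22 ± 1.1 CPM in the same order (8.88-fold and 3.19-fold, adjusted p = 5.16e-24 and 7.3e-18). The angiotensin-converting enzyme Ace rose 1.91-fold in Ripk3-KO and 1.5-fold in VilCre-Ripk3fl/fl, and the meprin subunit Mep1b 1.54-fold and 2.05-fold.

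Akp3, a second intestinal alkaline phosphatase gene and a paralog of Alpi, was the 1 hydrolase that fell. It measured 5.22, 7.39 and 7.08 CPM in Ripk3-KO, 110.1, 117 and 105 CPM in VilCre-Ripk3fl/fl, and 46.5, 40.2 and 40.6 CPM in WT. The 3 groups were far apart, with Ripk3-KO lowest and VilCre-Ripk3fl/fl highest, the same order as for Alpi with a far wider spread. Akp3 fell 6.45-fold in Ripk3-KO (log2 -2.69, SE 0.097, adjusted p = 2.38e-16), rose 2.61-fold in VilCre-Ripk3fl/fl (log2 1.38, SE 0.081, adjusted p = 2.27e-12) and was 16.8-fold lower in Ripk3-KO than in VilCre-Ripk3fl/fl (adjusted p = 1.57e-19). How the counting treated reads that fit both paralogs is not given in the sources used here, so the levels of Akp3 and Alpi are uncertain to that extent.

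Of 10 transporters that take up the products of these enzymes, 9 rose and none fell in Ripk3-KO, and 9 rose and 1 fell in VilCre-Ripk3fl/fl, with median log2 fold changes of 0.73 and 0.63. The peptide transporter Slc15a1 averaged 317 ± 8.99 CPM in Ripk3-KO, 269.9 ± 22.5 CPM in VilCre-Ripk3fl/fl and 143 ± 2.36 CPM in WT, and Slc5a1, which takes up glucose and galactose, 1977 ± 18.5, 2180.0 ± 22.6 and 1427 ± 21.1 CPM (SD, n = 3). The fructose transporter Slc2a5 was the 1 that fell in VilCre-Ripk3fl/fl, by 1.17-fold (adjusted p = 0.000478), and in Ripk3-KO it rose 1.18-fold. Of 19 genes of microvillus structure, 14 rose and 3 fell in Ripk3-KO and 13 rose and 4 fell in VilCre-Ripk3fl/fl, with smaller medians of 0.28 and 0.31. Villin (Vil1), whose promoter drives the Cre, averaged 2316 ± 116 CPM in Ripk3-KO, 2094 ± 130.1 CPM in VilCre-Ripk3fl/fl and 1785 ± 34.8 CPM in WT, a rise of 1.30-fold and 1.17-fold. Among 11 villus tip genes, 9 rose and 1 fell in Ripk3-KO and 8 rose and 2 fell in VilCre-Ripk3fl/fl, and among 13 crypt and cell cycle genes 3 rose and 8 fell, and 4 rose and 8 fell.

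**Figure D4:**
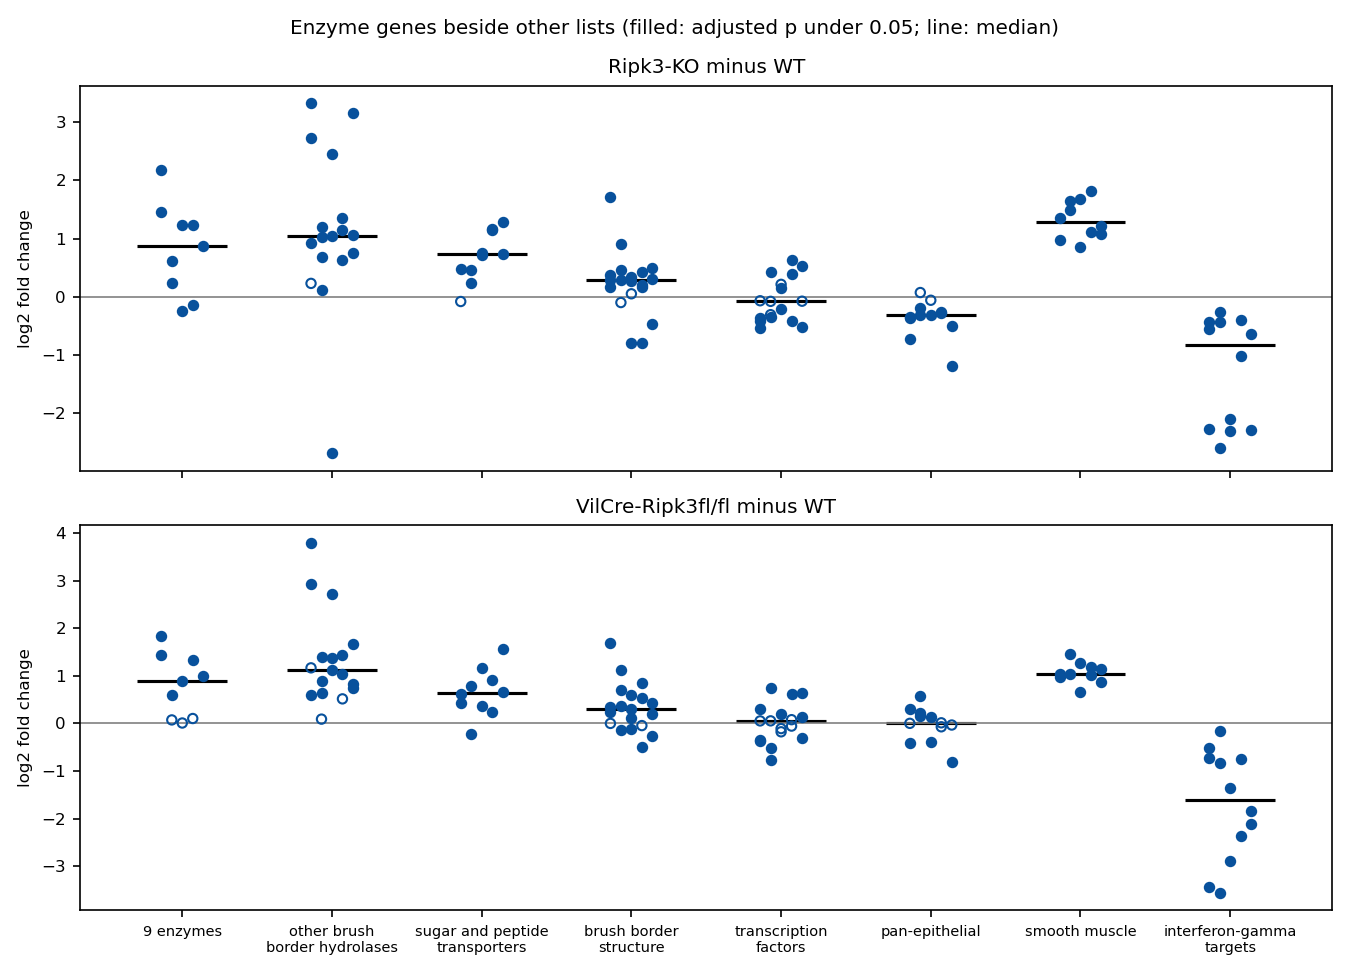
Log2 fold change against WT of the 9 enzyme genes and of 7 other gene lists, for Ripk3-KO (upper panel) and VilCre-Ripk3fl/fl (lower panel), each point a tested gene, filled where the adjusted p was under 0.05, with a line at the list's median. The enzymes and the other hydrolases share medians near 1, while the transcription factors lie around 0, smooth muscle genes all lie above 0 and interferon-gamma targets all lie below it.

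Of 17 transcription factors of enterocyte genes, 5 rose and 7 fell in Ripk3-KO, and 6 rose and 5 fell in VilCre-Ripk3fl/fl. Of all genes tested, 27.3% rose and 28.1% fell in Ripk3-KO and 27.2% rose and 28.4% fell in VilCre-Ripk3fl/fl. The factors had median log2 fold changes of -0.08 and 0.05. Hnf4a averaged 707 ± 52.6 CPM in Ripk3-KO, 774 ± 45 CPM in VilCre-Ripk3fl/fl and 746 ± 19.1 CPM in WT, Gata4 139 ± 2, 151 ± 4.08 and 145 ± 5.45 CPM, and Cdx2 171 ± 11.2, 196 ± 2.55 and 179.8 ± 1.09 CPM (SD, n = 3). Of these 3, only Cdx2 in VilCre-Ripk3fl/fl passed against WT, at 1.09-fold (adjusted p = 0.0319). Klf4, a factor of differentiated villus cells, rose 1.55-fold in Ripk3-KO and 1.53-fold in VilCre-Ripk3fl/fl (adjusted p = 9.16e-12 and 2.02e-11). The others with the smallest p were Creb3l3, which rose 1.31-fold in Ripk3-KO (adjusted p = 6.09e-08), and Gata5, which rose 1.69-fold in VilCre-Ripk3fl/fl (adjusted p = 3.19e-10). Among those that fell, Smad4 was 1.45-fold lower in Ripk3-KO and 1.29-fold lower in VilCre-Ripk3fl/fl (adjusted p = 1.56e-09 and 9.33e-07), Klf5 1.43-fold lower in Ripk3-KO (adjusted p = 7.8e-08) and Prdm1 1.44-fold lower in VilCre-Ripk3fl/fl (adjusted p = 1.64e-06).

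These enzymes vary along the length of the intestine, so markers of its regions were read beside them. Of 11 proximal markers, 5 rose and 4 fell in Ripk3-KO and 5 rose and 2 fell in VilCre-Ripk3fl/fl, and they did not move together: the fatty acid binding protein gene Fabp1 rose 2.37-fold and 1.89-fold, while the iron exporter gene Slc40a1 averaged 12.8 ± 1.26 CPM in Ripk3-KO, 71.4 ± 2.47 CPM in VilCre-Ripk3fl/fl and 86.2 ± 2.15 CPM in WT. The duodenal factor Pdx1 averaged 8.21 ± 0.301, 30.0 ± 1.61 and 41 ± 2.74 CPM in the same order (SD, n = 3). Of 11 distal markers tested, 4 rose and 5 fell in Ripk3-KO and 5 rose and 3 fell in VilCre-Ripk3fl/fl. The cubilin partner gene Amn rose 2.83-fold in Ripk3-KO against WT and 2.97-fold in VilCre-Ripk3fl/fl against WT (adjusted p = 4.42e-15 and 2.89e-15). The carboxylesterase gene Ces2a rose 2.42-fold in the Ripk3-KO comparison and 4.05-fold in the VilCre-Ripk3fl/fl comparison (adjusted p = 1.96e-14 and 2.12e-18). Nr1h4, the bile acid receptor gene, fell 2.28-fold in the Ripk3-KO comparison and 1.66-fold in the VilCre-Ripk3fl/fl comparison (adjusted p = 1.83e-13 and 2.91e-09). The bile acid exporter gene Slc51b fell 1.74-fold in Ripk3-KO (adjusted p = 6.75e-12), and the phosphate transporter gene Slc20a1 fell 2.54-fold in VilCre-Ripk3fl/fl (adjusted p = 1.44e-14). The ileal bile acid binding protein gene Fabp6 was near 0 in every group, at means of 0.479, 1.07 and 1.02 CPM, with Fgf15 at 0 in WT. The 12 interferon-gamma targets all fell in both genotypes, with median log2 fold changes of -0.83 and -1.60 and sums of 1593 to 1613 CPM in Ripk3-KO, 1280.1 to 1290.4 CPM in VilCre-Ripk3fl/fl and 2775 to 2853 CPM in WT. The part of region, of immune signalling and of cell composition in the levels of the enzyme genes was not tested.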

How the data were processed

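The deposited table, on mm10, gives whole-number counts per gene that the authors made with the tools Trimmomatic, STAR, HTSeq and DESeq2, per the submitters' processing notes, which do not give their roles. It also holds the authors' RPKM and TPM per library and the authors' deposited log2 fold changes, FDR-adjusted p-values and highest group means against WT, which cover 26529 genes. The labels name stranded kits, but the use of strand by the counting step is not given in the sources used here.

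Counts of all 9 libraries were fitted with edgeR 4.0.16 in R 4.3.3, with filterByExpr by group, TMM factors of 0.932 to 1.043, 1 mean per group and a robust quasi-likelihood fit, which had a common biological coefficient of variation of 0.081 and 6 residual degrees of freedom. P-values were 2-sided and adjusted by Benjamini-Hochberg over 16539 genes. Called, rose and fell are used of genes with an adjusted p under 0.05. The procedure was tested on simulated data. CPM of single genes are TMM-scaled, and sums of CPM over marker lists are not. Intervals around means are the SD over 3 libraries. TPM were used only to order members by level per length and beside the fits of Sis, Mgam and Alpi, and RPKM only beside the authors' group means.

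The members and gene lists were chosen with earlier results of these data known. One gene of the transcription factor list is not reported here. The text names all 9 members, up to 2 higher and 2 lower genes of a list with the smallest p and genes a sentence turns on, and the 3 genes most correlated with each member among those with a mean of at least 10 CPM. Gene positions are those of GENCODE release M21, and promoters are RefSeq's on GRCm38.p6, matched by symbol for 9 of 9 members. Alternatives were RLE and upper-quartile scaling, scaling to pan-epithelial genes or without pancreas and adipocyte genes, 2 other filters on low counts, limma-voom (limma 3.58.1), DESeq2 1.42.0, leaving out 1 library at a time, fits restricted to the groups compared, and a block for the replicate number.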

Additional observations from a re-analysis of the deposited data

How the results depend on the processing

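Each of 27 member results (9 genes in 3 comparisons) was recomputed under 19 alternatives, and 475 of 513 values kept their direction and their side of the threshold. Scaling to pan-epithelial genes turned the direction of Mgam and Alpi in Ripk3-KO against WT (log2 0.12 and 0.23), and of Mgam, Treh, Anpep and Alpi in Ripk3-KO against VilCre-Ripk3fl/fl (log2 0.0883, 0.25, 0.23 and 0.10). By construction it equalises the geometric mean of 12 genes, of which 10 fell in Ripk3-KO against WT under TMM scaling. Under it 10185 genes were called between the mutants, 9603 of them higher in Ripk3-KO, where TMM scaling called 5244. Mgam in VilCre-Ripk3fl/fl against WT, near 0, had a log2 difference of -0.011 with no filter beyond 1 read and of -0.018 to 0.028 when libraries were left out, and Enpep between the mutants -0.00998 to 0.0543. The cause was not tested. Upper-quartile scaling ended the calls of Alpi in Ripk3-KO against WT (log2 -0.09, adjusted p = 0.121) and of Anpep between the mutants (adjusted p = 0.0861), and made calls of Sis and Alpi in VilCre-Ripk3fl/fl against WT (adjusted p = 0.0380 and 0.0121). Alpi in VilCre-Ripk3fl/fl against WT also passed with RLE scaling, the filter at 1 CPM, the fit of 2 groups, DESeq2, limma-voom and pan-epithelial scaling (adjusted p = 0.0200 to 0.0457).

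With libraries left out in turn, 8 to 9 members were called in Ripk3-KO against WT, 6 to 8 in VilCre-Ripk3fl/fl against WT and 6 to 8 between the mutants. Over all genes, 8240 to 9477, 8315 to 9431 and 4069 to 5226 were called in the same order, of 16914 to 17041 tested. Samples share replicate numbers between groups, but the residual correlation of same-numbered libraries was -0.04 to 0.09, and only 2 of the 9 were most like a library of their own number. No sign of pairing by number was thus seen, though a weak pairing could go unseen with 3 libraries per group. With a replicate block, 9, 7 and 7 members and 9211, 9247 and 5371 genes were called in the 3 comparisons. Alpi in VilCre-Ripk3fl/fl against WT passed with the block (adjusted p = 0.0413). Members had 4221 counts or more in every library.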

Other observations

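The means behind the authors' deposited comparisons differed from those of the 3 WT libraries for genes outside the enzymes as well. In the authors' deposited table the higher group mean of Ripk3 was 41.5 RPKM in both comparisons, where the 3 Ripk3-KO libraries averaged 1.60 RPKM, the 3 VilCre-Ripk3fl/fl libraries 2.49 RPKM and the 3 WT libraries 51.9 RPKM. For Xist, the higher mean in the VilCre-Ripk3fl/fl comparison of the authors' deposited table was 2.41 RPKM, against 0.317 RPKM in the 3 VilCre-Ripk3fl/fl libraries and 0.427 RPKM in the 3 WT libraries. Where the higher mean in the authors' deposited table was not the mutant mean, its ratio to the mean of the 3 WT libraries had a median of 0.934 in the Ripk3-KO comparison and 0.940 in the VilCre-Ripk3fl/fl comparison, and its lowest value was 0.600 in both.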
